A study of Mus musculus with 8 samples.

Results

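The genes described here encode receptors for interleukins, interferons, colony-stimulating factors and chemokines, receptors and ligands of the tumour necrosis factor (TNF) family, Toll-like receptors and NLR proteins. They were chosen by symbol: a probe set had to carry exactly 1 platform symbol that began with one of the family stems (Il followed by a number and r, Tnfrsf, Tnfsf, Ccr, Cxcr, Tlr, Nlr, Ifnar, Ifngr, Ifnlr or Csf followed by a number and r), Il1r2 was left out, and the probe set with the highest mean over the 8 arrays stood for a gene. This gave 68 genes of the 9294 genes with 1 symbol, each represented by 1 probe set. The arrays came from C57BL/6 mouse keratinocytes, the epithelial cells of the epidermis, 3 days after transduction with v-rasHa, a viral oncogene form of Hras, in medium without starvation. The 4 WT RAS samples were wildtype keratinocytes carrying v-rasHa, and the 4 KO RAS samples were Nfkbiz KO keratinocytes carrying v-rasHa. Nfkbiz encodes IkBz, an inducible nuclear protein that binds NF-kB and tunes a subset of its targets. Both groups carry the oncogene, so no value describes keratinocytes without it, and the labels give neither the age of the animals nor how the knockout allele was made.

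Receptors of these families connect keratinocytes to the immune system. IL-1 family receptors and Toll-like receptors share an intracellular TIR domain, and most of them signal through MyD88 to NF-kB. IL-17 receptors reach NF-kB through the adaptor Act1. The class of receptors for IL-10, IL-22, IL-24 and the interferons signals through pairs of chains to JAK kinases and STAT factors. TNF receptors lead to NF-kB or to cell death, chemokine receptors are coupled to G proteins, and NLR proteins sense microbial products or damage inside the cell. In epidermis, IL-17, IL-22, IL-36 and TNF are known for driving defence genes and the thickening seen in psoriasis, and Nfkbiz is itself a known target of IL-1 family and IL-17 signals.

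As a class, these genes differed between the genotypes about as often as other genes, and 2 of them stood out by size. Il18r1, the ligand-binding chain of the IL-18 receptor, was 1.95-fold higher in KO RAS, and Il22ra1, the chain that gives epithelial cells their response to IL-22, was 1.52-fold lower in signal. Ifnlr1 and Il20rb were slightly higher and Tnfrsf1a, the main TNF receptor, slightly lower. The other 63 genes did not pass the test, which was limma's moderated test with Benjamini-Hochberg adjustment over all 9294 genes and a threshold of 0.05. Of the 68 members, 5 were called in all (7.35%, against 8.9% of all genes tested): 3 were called higher (4.41%, against 4.47% of all genes) and 2 called lower (2.94%, against 4.43% of all genes). The median log2 fold change of the 68 was -0.04, against -0.01 over all genes. Values of KO RAS and WT RAS did not overlap for 3 members on the higher side (4.41%, against 7.91% of all genes) and 4 on the lower side (5.88%, against 7.97%). After centring the arrays on their medians, 482 genes were called higher and 314 lower in place of 415 and 412, and the members gave 3 and 1.

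**Figure D1:**
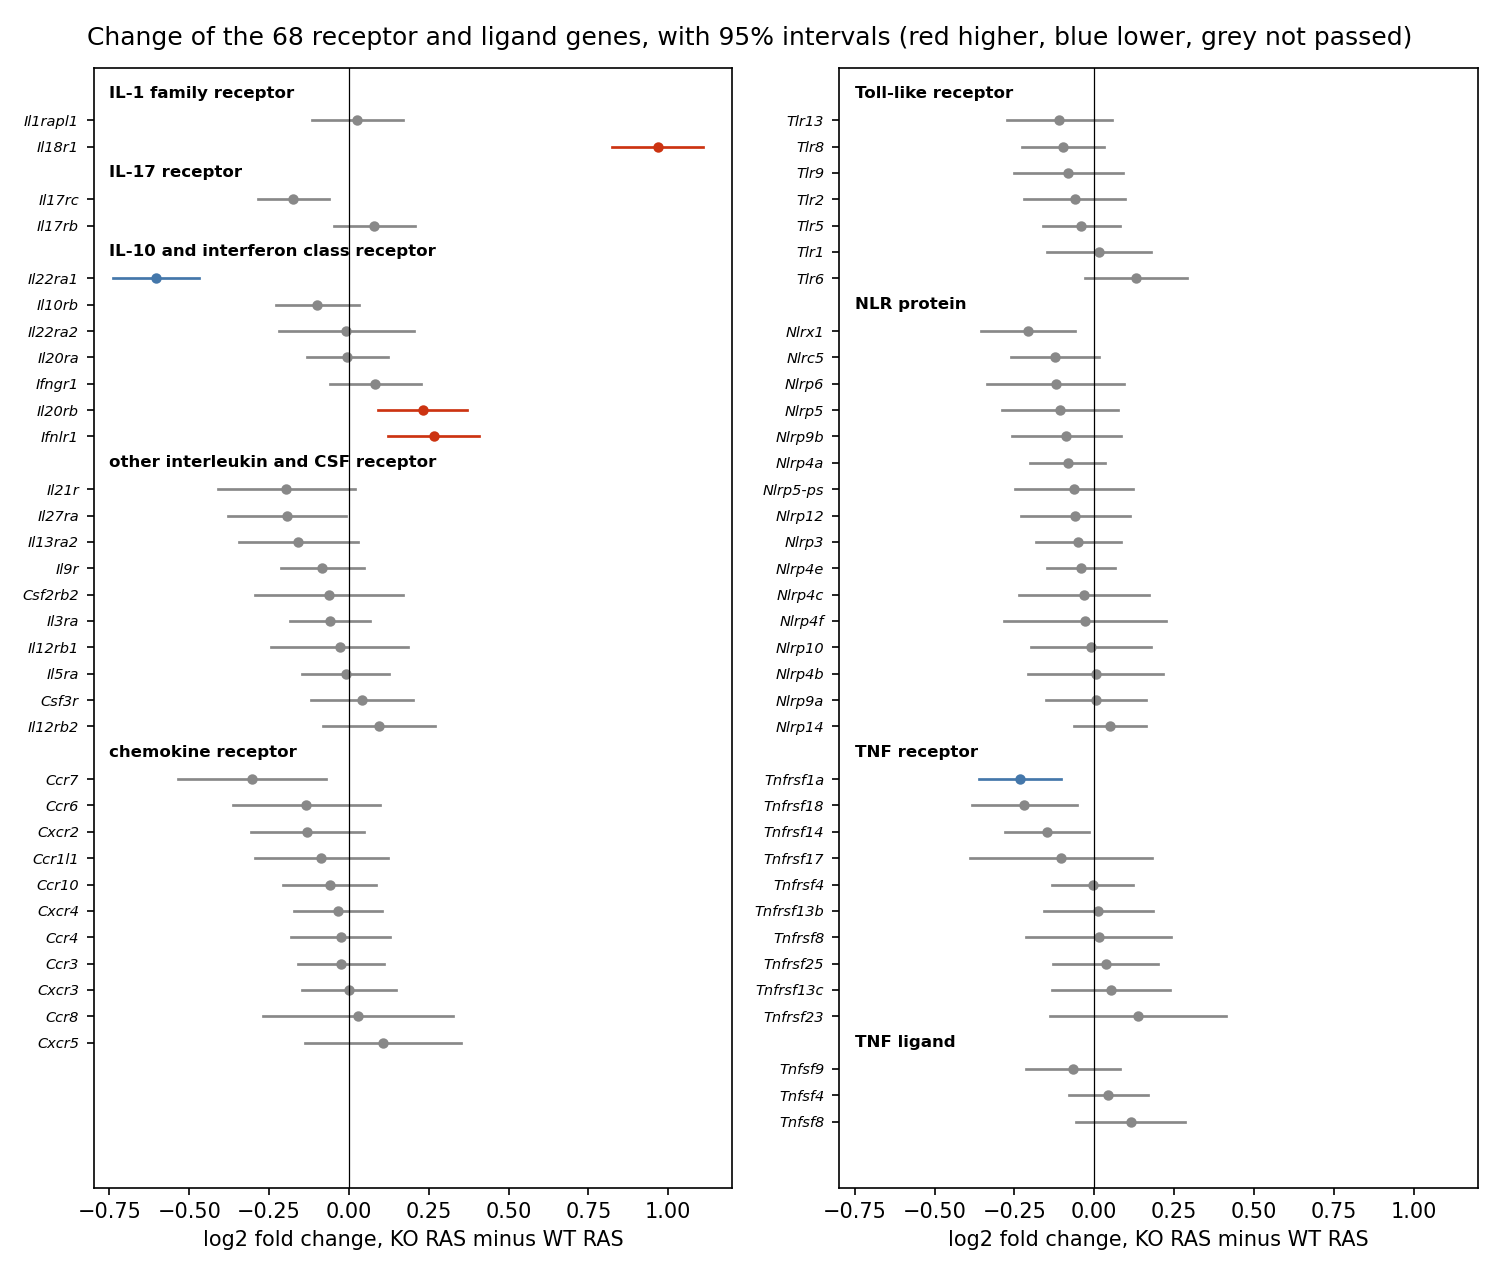
Log2 fold change (KO RAS minus WT RAS, 4 arrays per group) of each of the 68 genes by role, with the moderated 95% interval as a line; the intervals are not adjusted for the number of genes. The changes of 63 genes are grey, and Il18r1 at 0.97 and Il22ra1 at -0.60 lie apart from all others.

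Signals are given on the deposited log2 scale. They cannot be set against each other between genes, and no detection call was used, so a low signal could not be told from background. Array medians over all probe sets lay between 4.49 and 4.57, and lower quartiles between 3.33 and 3.39. Of the 68 members, 24 had a mean over every array median and 16 had a mean under every lower quartile. All 5 members that passed were among those 24, so that 12.5% of the 24 were called higher (7.68% of the 5003 genes over the same line) and 8.33% lower (7% of those genes). None of the other 44 members passed limma's adjusted threshold, and 3 of them had an unadjusted p under 0.05. Such an unadjusted p was found for 11 of the 68 members and for 1932 of all 9294 genes.

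**Figure D2:**
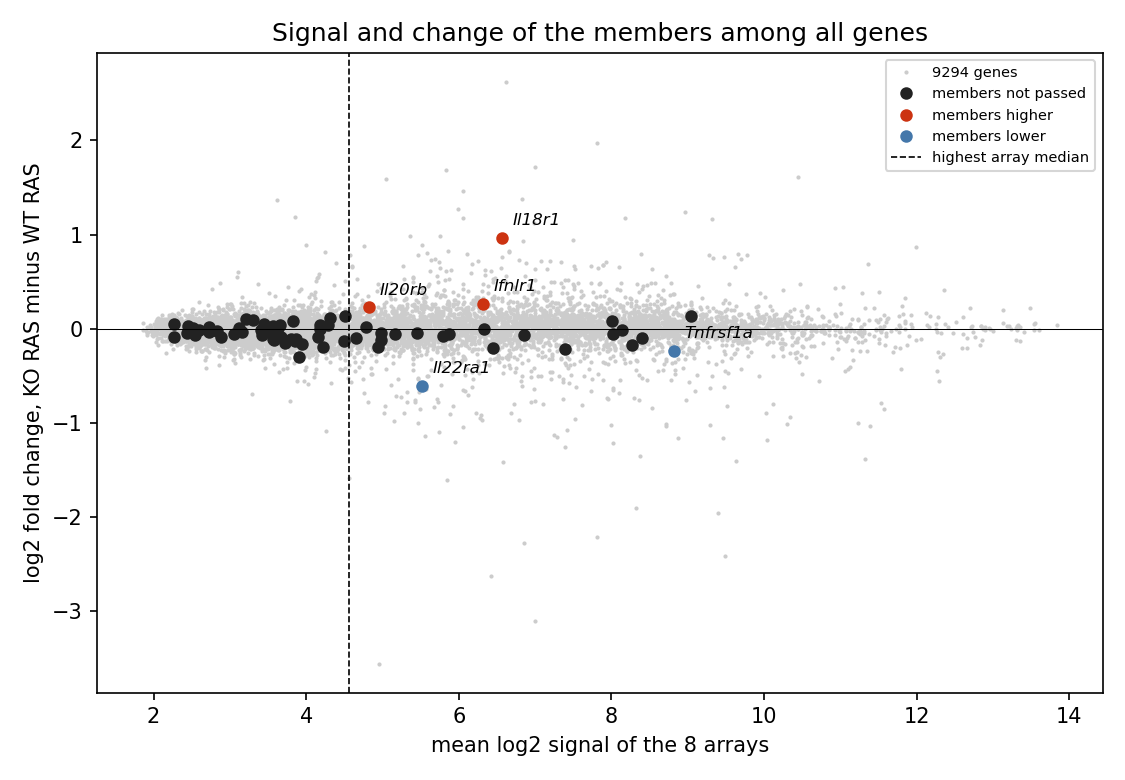
Mean log2 signal of the 8 arrays (horizontal) against log2 fold change (vertical, KO RAS minus WT RAS) for 9294 genes in grey and the 68 members as larger points. The members called higher or lower lie to the right of the dashed line at the highest array median, 4.57.

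Promoters of 3 members are shown because Il18r1 and Il22ra1 changed most and because Ifnlr1, which moved the other way, lies next to Il22ra1. They are RefSeq sequences of GRCm38.p6, running from 250 bases before to 50 bases after a start site, 5′ to 3′ along the gene. Capitals mark matches to GGGANNTTCC, a form of the NF-kB motif, searched on both strands.
Il18r1 (chr1:40465302-40465601, plus strand, the most upstream of 3 start sites): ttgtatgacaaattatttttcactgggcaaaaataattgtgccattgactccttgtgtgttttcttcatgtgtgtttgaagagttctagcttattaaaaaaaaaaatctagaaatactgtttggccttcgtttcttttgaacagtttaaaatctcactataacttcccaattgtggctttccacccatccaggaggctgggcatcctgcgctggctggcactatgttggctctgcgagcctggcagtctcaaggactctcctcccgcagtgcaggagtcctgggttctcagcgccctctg
Ifnlr1 (chr4:135686207-135686506, plus strand): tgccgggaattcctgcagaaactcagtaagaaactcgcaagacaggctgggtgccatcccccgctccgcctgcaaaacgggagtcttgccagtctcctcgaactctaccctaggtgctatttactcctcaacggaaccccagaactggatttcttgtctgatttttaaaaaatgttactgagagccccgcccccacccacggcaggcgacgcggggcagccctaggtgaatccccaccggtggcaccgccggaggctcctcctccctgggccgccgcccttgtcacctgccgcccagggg
Il22ra1 (chr4:135727909-135728208, plus strand): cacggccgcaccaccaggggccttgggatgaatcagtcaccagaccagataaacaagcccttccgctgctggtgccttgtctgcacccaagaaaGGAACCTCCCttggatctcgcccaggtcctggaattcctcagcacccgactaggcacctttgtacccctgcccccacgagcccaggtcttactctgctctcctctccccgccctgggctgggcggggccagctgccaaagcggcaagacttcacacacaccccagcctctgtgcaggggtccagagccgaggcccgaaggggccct
The Il22ra1 promoter held 1 match, which begins 156 bases before the start site and reads in the reverse direction. Il18r1 and Ifnlr1 held none in these windows, and neither did Il20rb or Tnfrsf1a. Of the 55 members with an entry, 3 held a match (5.45%), the others being Ccr3 and Csf3r, which did not pass the test. Of all 32851 promoter windows of the same length, 1.47% held one. Each member was searched only in its most upstream window, while the 32851 include every listed start site, so these shares are not of the same kind. The looser GGGNNNNNCC, searched first, matched 50.8% of all windows and so says little about any of them. Among the 5 that passed, the STAT motif TTCNNNGAA (8.3% of windows) occurred once, in Tnfrsf1a, and the interferon response motif TTTCNNTTTC (3.44%) in none. The STAT motif also occurred in Ccr6, Ccr1l1, Nlrx1, Nlrp9b, Nlrp12, Csf2rb2, Il12rb2, Tnfrsf18, Tlr8 and Tlr6, which did not pass. A match is a description of letters and not of binding.

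Il18r1 had the largest change of the 68. The receptor chain it encodes binds IL-18, a cytokine that epithelial cells store and release on damage. Its log2 signals were 6.16, 6.17, 5.97 and 6.06 in WT RAS and 7.18, 7.05, 6.99 and 7.01 in KO RAS. All 4 knockout arrays lay above all wildtype arrays, with a gap between the groups far wider than the spread within either. The means were 6.09 ± 0.09 and 7.06 ± 0.09 (SD, n = 4 per group), and the log2 fold change was 0.97 ± 0.06 (SE; limma adjusted p = 3.40e-06). By size it ranked at 19 of the 415 genes called higher. Among the 68, the only other gene of the IL-1 receptor family was Il1rapl1, known mainly from neurons. Il1rapl1 had a mean of 2.45, under the lower quartiles, and a difference of 0.03. Sigirr, also of this family, is given with the signalling genes. Il1r1, Il1rap, Il1rl1, Il1rl2 and Il18rap, the second chain of the IL-18 receptor, were not analysed here. Il18 itself, for which these cells had a mean signal of 8.33 in WT RAS and 8.36 in KO RAS, had a difference of 0.03 with a 95% interval from -0.12 to 0.19. Il18bp, the soluble protein that neutralises IL-18, differed by 0.10 with an interval from -0.08 to 0.29.

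**Figure D3:**
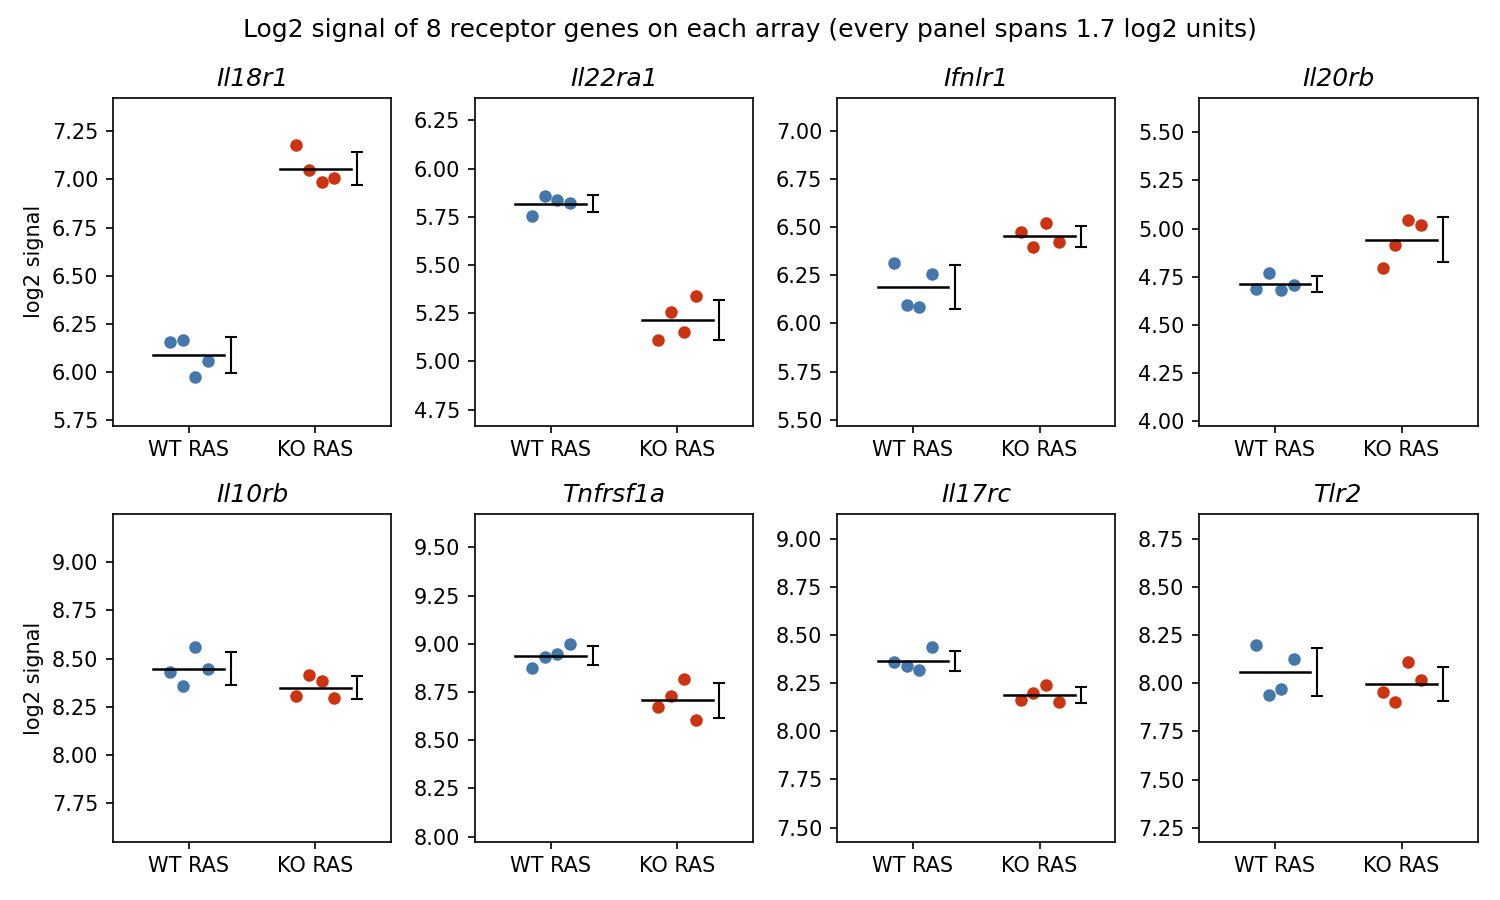
Log2 signal of 8 receptor genes on each array, with the mean as a bar and the SD (n = 4) as the bracket; every panel spans the same range, so distances can be compared between panels. The means differ by 0.97 for Il18r1 and by -0.60 for Il22ra1, and the values of the genotypes overlap for Il10rb and Tlr2.

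Il22ra1 had the largest fall. IL-22 binds the Il22ra1 chain paired with Il10rb, and the same Il22ra1 chain paired with Il20rb receives IL-20 and IL-24. Its log2 signals were 5.76, 5.86, 5.84 and 5.82 in WT RAS and 5.11, 5.26, 5.15 and 5.34 in KO RAS. Every knockout array was below every wildtype array. The means were 5.82 ± 0.04 and 5.21 ± 0.10 (SD, n = 4 per group), with a log2 fold change of -0.60 ± 0.06 (SE; limma adjusted p = 8.60e-05). It ranked at 99 by size among the 412 genes called lower. The calls of Il18r1 and Il22ra1 held in all 16 alternative analyses.

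Neither chain that pairs with Il22ra1 was called lower. Il10rb, the shared second chain of the receptors for IL-10, IL-22 and interferon lambda, had signals of 8.43, 8.36, 8.56 and 8.44 in WT RAS and 8.30, 8.41, 8.39 and 8.29 in KO RAS. These overlap, and the difference of -0.10 had a 95% interval from -0.23 to 0.03 (limma adjusted p = 0.387). Il20rb, the shared second chain for IL-19, IL-20 and IL-24, had signals of 4.69, 4.77, 4.68 and 4.71 in WT RAS and 4.79, 4.91, 5.05 and 5.02 in KO RAS, just above the array medians. The groups were separate by a narrow margin, and Il20rb was called higher with 0.23 ± 0.06 (SE; limma adjusted p = 0.0467). That call was lost when any single array other than KO RAS replicate 1 was left out, with adjusted p up to 0.127. Il20ra, the alternative partner of Il20rb, had a mean of 3.43, close to the lower quartiles, and a difference of -0.01. Il22ra2, which encodes a soluble decoy for IL-22, also differed by -0.01, at a mean of 3.40.

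Interferon receptors were represented by Ifnlr1 and Ifngr1. Ifnlr1, the specific chain for interferon lambda, the interferon of epithelial surfaces, had signals of 6.31, 6.10, 6.09 and 6.25 in WT RAS and 6.47, 6.40, 6.52 and 6.42 in KO RAS. All knockout values were higher, and the gap between the groups was narrow. The log2 fold change was 0.27 ± 0.06 (SE; limma adjusted p = 0.027). The call was lost without WT RAS replicate 2 or 3 or KO RAS replicate 1, 3 or 4, with adjusted p up to 0.0814. Ifngr1, the ligand-binding chain for interferon gamma, had signals of 7.98, 8.00, 8.01 and 7.87 in WT RAS and 8.01, 8.06, 8.19 and 7.93 in KO RAS. These values overlap, and the difference was 0.08 (limma adjusted p = 0.535).

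Ifnlr1 and Il22ra1 are neighbouring genes on chromosome 4, with no protein-coding gene between them in the RefSeq order, and Ifnlr1 was called higher and Il22ra1 lower. The pair was picked out after its values were seen, and no test is given for it.

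Of the 11 measured genes of a list of 25 ligands and partner chains, drawn up after the receptor values were seen, Il24 differed most. It was called lower, Tnf was called higher and 9 did not pass, beside 4.43% lower and 4.47% higher among all 9294 genes. Il24, whose product signals through Il20rb with Il22ra1 or Il20ra, had signals of 9.20, 9.26, 9.34 and 9.07 in WT RAS and 8.24, 8.19, 8.19 and 8.21 in KO RAS, a difference of -1.01 ± 0.06 (SE; limma adjusted p = 2.12e-06). The Il20 signal, near the array medians, differed by 0.01 with an interval from -0.18 to 0.20. In the receptor that pairs Il22ra1 with Il20rb, the ligand Il24 and the chain Il22ra1 thus had lower signals and Il20rb a slightly higher one.

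Only 2 IL-17 receptor chains were measured. Il17rc, the partner of Il17ra in the receptor for IL-17A and IL-17F, had signals of 8.36, 8.34, 8.32 and 8.44 in WT RAS and 8.16, 8.20, 8.24 and 8.15 in KO RAS. The groups did not overlap, but the difference of -0.18 ± 0.05 (SE) missed the threshold (limma adjusted p = 0.0569). It passed in 4 of 16 alternatives, 3 of which leave out low genes or model the variance by signal, and the 95% interval ran from -0.29 to -0.06. Il17rb, the chain for IL-25, had a mean of 3.82 and a difference of 0.08. Il17ra was not analysed here.

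Of the 10 TNF receptors, 1 fell and 9 did not pass. Over all 9294 genes 4.43% were called lower, and 7% of the 5003 genes with a mean over every array median. Tnfrsf1a, which carries most of the response to soluble TNF, had signals of 8.88, 8.93, 8.95 and 9.00 in WT RAS and 8.67, 8.73, 8.82 and 8.61 in KO RAS. The highest knockout array lay just under the lowest wildtype array. The log2 fold change was -0.23 ± 0.06 (SE; limma adjusted p = 0.0314), a 1.17-fold difference in signal. The call held without WT RAS replicate 1 or KO RAS replicate 3 and was lost without any other single array (adjusted p up to 0.0841), and with arrays centred on their medians it was -0.21 with an adjusted p of 0.0722. Tnf, the ligand, rose by 0.27 ± 0.05 in the same arrays (limma adjusted p = 0.00929).

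Tnfrsf18, which encodes the costimulatory receptor GITR, had signals of 7.45, 7.54, 7.59 and 7.45 in WT RAS and 7.16, 7.39, 7.43 and 7.17 in KO RAS. The groups were barely separate, and the difference of -0.22 ± 0.07 (SE) did not pass (limma adjusted p = 0.105), although it did in 3 of 16 alternatives. Tnfrsf23, a decoy receptor for TRAIL, had signals of 9.04, 9.08, 9.17 and 8.60 in WT RAS and 9.21, 9.21, 8.84 and 9.19 in KO RAS. One array in each group was low, the groups overlapped, and the 95% interval of the difference, -0.14 to 0.41, was wide. Tnfrsf14, the receptor for LIGHT on many cells, had a difference of -0.15 at a mean of 3.72. The lymphocyte receptors Tnfrsf13b, Tnfrsf13c and Tnfrsf17, which bind BAFF or APRIL on B cells, had means of 3.12, 3.45 and 3.80 and overlapping groups. Among the 3 TNF ligands, Tnfsf9, the ligand of 4-1BB, had 6.80, 6.98, 6.88 and 6.91 in WT RAS and 6.91, 6.72, 6.73 and 6.93 in KO RAS, an overlap with a difference of -0.07, while Tnfsf4 and Tnfsf8 had means of 3.66 and 4.31 and did not pass either.

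None of the 7 Toll-like receptors passed limma's threshold, and their log2 fold changes lay between -0.11 and 0.13. Of the 7, 0 had an unadjusted limma p under 0.05, beside 1932 of all 9294 genes. Tlr2, the receptor for bacterial lipoproteins, had signals of 8.20, 7.94, 7.97 and 8.13 in WT RAS and 7.96, 7.90, 8.11 and 8.01 in KO RAS. The groups overlapped widely, and the 95% interval of the difference was -0.22 to 0.10. Tlr5, the flagellin receptor, and Tlr9, the receptor for unmethylated DNA, had means of 5.46 and 5.79 and differences of -0.04 and -0.08. Tlr6, which pairs with Tlr2, had the highest difference, 0.13, with a mean of 4.51 near the array medians. Tlr1, the other partner of Tlr2, had a mean of 2.72, under every lower quartile. Tlr3 and Tlr4 were not analysed here.

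None of the 16 NLR genes passed limma's threshold either, and their differences ran from -0.21 to 0.05. An unadjusted limma p under 0.05 was found for 1 of the 16, beside 1932 of all 9294 genes. Nlrx1, a mitochondrial NLR protein, came closest with signals of 6.59, 6.44, 6.52 and 6.65 in WT RAS and 6.45, 6.22, 6.30 and 6.40 in KO RAS. WT RAS replicate 2 lay just below the highest knockout array, and the difference was -0.21 ± 0.07 (SE; limma adjusted p = 0.091). It passed in 2 of 16 alternatives, with adjusted p of 0.0327 without genes under a log2 signal of 5 and 0.0497 with a variance trend. Nlrp10, an NLR protein without leucine-rich repeats that is made in epidermis, had signals of 7.91, 8.25, 8.25 and 8.17 in WT RAS and 7.97, 8.21, 8.21 and 8.16 in KO RAS. The genotypes lay on top of each other, with replicate 1 lowest in both and a difference of -0.01. Nlrp3, the inflammasome sensor, and Nlrc5, a regulator of MHC class I genes, had means of 4.98 each and differences of -0.05 and -0.12. In 7 NLR genes the mean lay under every lower quartile, among them Nlrp4a, Nlrp4b, Nlrp4e and Nlrp4f, related genes known from oocytes whose probe sets may share targets.

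Chemokine receptors and the remaining cytokine receptors, most of them known from leukocytes, gave mostly low signals with no member past limma's threshold. An unadjusted limma p under 0.05 was found for 1 of the chemokine receptors and 1 of the others, beside 1932 of all 9294 genes. Of 11 chemokine receptors, Ccr10, the receptor for the skin chemokines CCL27 and CCL28, was the only one with a mean over the array medians, at 5.17, and it differed by -0.06. Ccr7, the homing receptor of dendritic cells and T cells, had signals of 4.03, 4.17, 4.15 and 3.86 in WT RAS and 3.83, 3.69, 3.49 and 3.99 in KO RAS. The groups overlapped through KO RAS replicate 4, and the difference was -0.30 ± 0.11 (SE; limma adjusted p = 0.115). Without that array it was -0.38 with an adjusted p of 0.046. Ccr7 passed in only this 1 of 15 alternatives, with a limma adjusted p up to 0.253 in the others. Ccr6, the receptor for Ccl20, had a mean of 4.50 and a difference of -0.13. Among 10 other interleukin and colony-stimulating factor receptors, Il3ra had a mean of 5.87 and a difference of -0.06. Il21r and Il27ra had differences of -0.20 and -0.19 (limma adjusted p = 0.29 and 0.215), and Il13ra2, a decoy for IL-13, had -0.16.

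The signalling genes beside these receptors changed in both directions. Of 83 listed adaptors, kinases, STAT factors, inhibitors and co-receptors, 30 were measured, of which 5 rose, 3 fell and 22 did not pass, with a median log2 fold change of 0.01. That is 16.7% higher and 10% lower, beside 4.47% and 4.43% of all 9294 genes tested, or 7.68% and 7% of the 5003 genes whose mean lay over every array median. Ifih1, the cytosolic RNA sensor MDA5, rose by 0.66 ± 0.06 (SE), from 7.77 ± 0.10 to 8.43 ± 0.07 (SD, n = 4 per group). Irf9, the DNA-binding part of the interferon-activated STAT complex, rose by 0.49 ± 0.08, and Stat4, a STAT factor known from lymphocytes, rose by 0.51 ± 0.09 from a mean of 3.88, under the array medians. Sigirr, an inhibitor in the IL-1 receptor and Toll-like receptor family, rose by 0.32 ± 0.07, a call lost without WT RAS replicate 2 (adjusted p = 0.0518), and without that array 3 signalling genes rose in place of 5.

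The 3 genes that fell were Traf3ip2, Ly96 and the kinase gene Ikbke. Traf3ip2, which encodes Act1, the adaptor of IL-17 receptors, had signals of 8.88, 8.85, 8.93 and 8.84 in WT RAS and a mean of 8.55 ± 0.04 (SD, n = 4) in KO RAS, a fall of 0.32 ± 0.05 (SE; limma adjusted p = 0.00141). Ly96, the MD-2 co-receptor of Tlr4, fell by 0.32 ± 0.07. Myd88, the adaptor shared by most IL-1 family and Toll-like receptors, had a difference of -0.21 ± 0.06 (SE). The groups did not overlap, but the difference missed the threshold (limma adjusted p = 0.0563). It passed in 6 of 16 alternatives. Traf3ip2 and Ly96 passed in all 16.

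**Figure D4:**
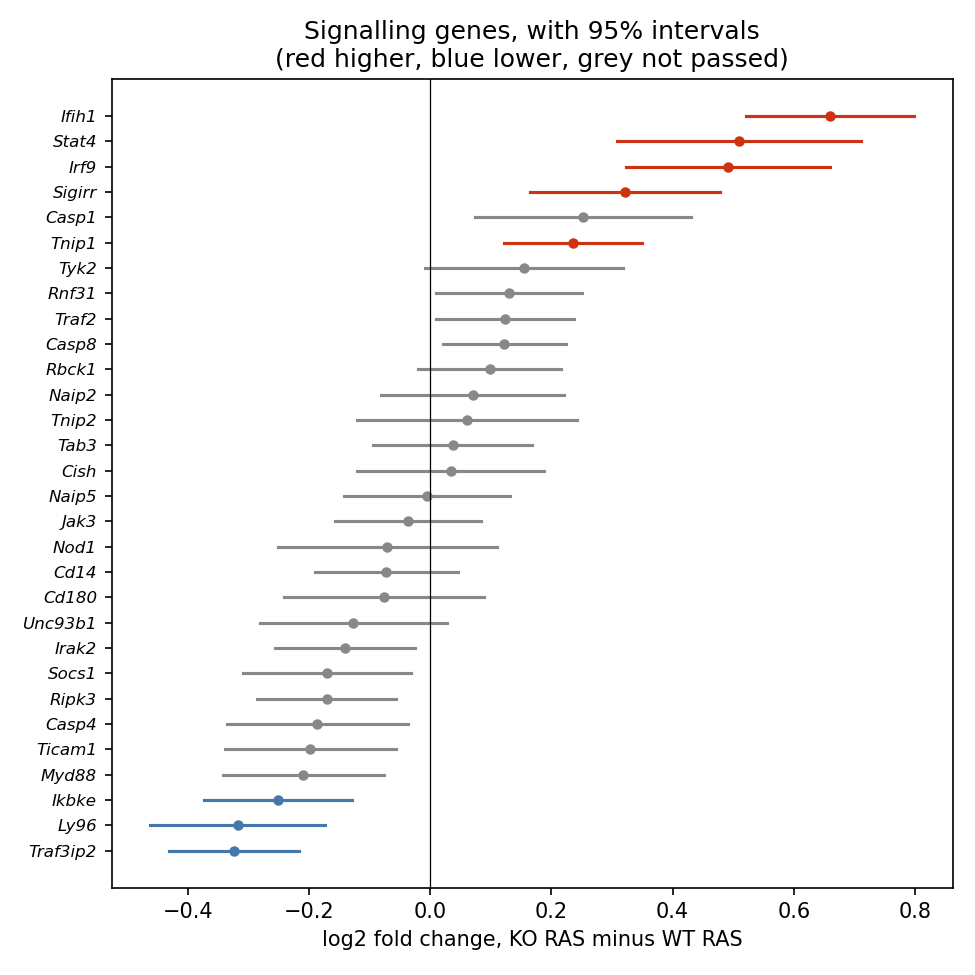
Log2 fold change (KO RAS minus WT RAS, 4 arrays per group) of the 30 measured signalling genes with moderated 95% intervals, not adjusted for the number of genes. Red marks the 5 genes that rose, from Tnip1 to Ifih1 at 0.66, and blue the 3 that fell, down to Traf3ip2 at -0.32.

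Marker genes of keratinocytes and of other skin cells were read from the same arrays. For scale, 4.47% of all 9294 genes were called higher and 4.43% lower. Of 7 keratinocyte markers, among them Krt5 at a mean of 13.42 in WT RAS and 13.29 in KO RAS, 1 fell and 6 did not pass. Of 12 leukocyte and macrophage markers, Tyrobp fell, none rose and 11 did not pass. Among these, 2, Cd3g and Itgam, lay under every lower quartile. The log2 of the summed signal of all 12 was 8.21 to 8.37 in WT RAS and 8.14 to 8.22 in KO RAS. Of 6 fibroblast markers, 5 fell and Postn rose, with log2 sums of 9.57 to 9.69 and 8.94 to 9.14. Of 3 melanocyte markers, 1 fell, with log2 sums of 11.46 to 11.53 and 11.09 to 11.39. None of 4 endothelial markers passed limma's threshold (1 had an unadjusted p under 0.05, beside 1932 of all 9294 genes). The part of these cells in the receptor differences was not tested, and fewer cells of a type and less RNA per cell cannot be told apart in bulk samples.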

How the data were processed

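Each of 11373 probe sets had 1 deposited number per array. The authors' deposited numbers run from 1.57 to 13.86 and were treated as log2 signals. How they were summarised and normalized, and on which build, is not given in the sources used here. Per the labels, RNA was isolated with Trizol and a column and labelled with biotin. In the platform annotation 9374 probe sets had 1 symbol, 479 several and 1520 none. All 68 members matched the GRCm38.p6 gene table by Entrez identifier. Differences were fitted with limma 3.58.1 (lmFit, then eBayes; R 4.3.3) over 9294 genes without covariates, with SEs and 95% intervals from the moderated variance. The labels call the 4 samples per genotype biological replicates; the number of arrays limits the precision, and the median SE was 0.069. Nfkbiz was not analysed here, so the knockout was not checked. On simulated data of 9294 genes, with 200 changed in each of 10 runs, 43.4% of genes changed 1.2-fold were recovered. Of those changed 1.5-fold and 2-fold, 94% and 99.6% were recovered, and 5.12% of calls were false. The deposited data gave 827 calls, and the adjusted threshold depends on how many genes change, so these shares need not hold for them.

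Members, lists, tests and alternatives were chosen with earlier results of these data known. Named members are all that passed, a preset list (Il1r1, Il1rap, Il1rl2, Il1rn, Tlr2, Tlr3, Il17ra, Il4ra, Ifnar1, Ifngr1, Tnfrsf1a, Tnfrsf1b and Il22ra1) where measured, and the highest mean of each role without a call; of the signalling list, the 6 largest called changes. Other genes named, the ligand list and the motifs were chosen after values were seen. The alternatives were repeated quantile normalization, centring, 2 filters on low signal, averaged probe sets, a variance trend, array weights, a replicate block and leaving out each array.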

Additional observations from a re-analysis of the deposited data

How the results depend on the processing

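Il18r1 (0.93 to 0.99) and Il22ra1 (-0.65 to -0.57) kept direction and call in all 16 alternatives. In place of 3 higher members, leaving out 1 array gave 1 to 2, and in place of 2 lower members 1 to 2. The count of lower members was 4 with repeated quantile normalization, 1 with centred arrays, 5 without genes under a log2 signal of 5 (18 members tested, Il20rb not among them) and 5 with a variance trend; Il17rc and Tnfrsf18 were among those added in these 3 longer counts. The 3 lower signalling genes became 5 with quantile normalization, without the lowest 25% of genes or with the variance trend, and 7 without genes under 5; leaving out 1 array gave 3 to 6 higher. With the replicate number as a block, 1 member was higher and 1 lower, and Ifnlr1, Il20rb and Tnfrsf1a had adjusted p of 0.0539, 0.083 and 0.0714. Over all genes, deviations of same-numbered samples from their group means had correlations of -0.05 to 0.09, and those of other pairs -0.10 to 0.11. Being taken over all genes at once, these values cannot decide whether same-numbered samples were paired. Il20rb also lost its call with the trend (adjusted p = 0.0716) and with array weights (0.0559). Of 52 genes recomputed under every alternative that keeps them, those whose sign turned all had differences near 0. Nlrp10 was 0.0151 with centred arrays and -0.0897 to 0.0437 without 1 array, Il20ra was 0.0235 with quantile normalization, 0.0214 with centring, 0.00167 with array weights and -0.0399 to 0.0201 without 1 array, and Il22ra2 was 0.018 with quantile normalization, 0.0184 with centring and -0.0952 to 0.051 without 1 array. Il20 was -0.0027 with array weights and -0.0646 to 0.0783 without 1 array. Without 1 array, Il18 was -0.00682 to 0.0733, Il1rapl1 -0.00754 to 0.0692, Myom3 -0.0464 to 0.129 and Slc9a4 -0.00856 to 0.0941. Averaging probe sets could not change a member's value, because no member had more than 1 probe set. The causes were not tested.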

Other observations

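Grhl3, an epidermal transcription factor gene, precedes Ifnlr1 and Il22ra1 in the RefSeq gene order and fell by 0.45 (limma adjusted p = 0.000279), while Myom3, which follows them, differed by 0.03 and did not pass. These neighbours were looked up after the receptor values were seen. Next to Tnfrsf1a, Plekhg6 was called lower with -0.36, and Scnn1a, Ltbr, Cd9 and Vwf did not pass. Of the genes around Il18r1 only Slc9a4 and Slc9a2 were measured, with differences of 0.04 and 0.16 that did not pass.

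Of the probe sets that name several genes of these families, none was counted as a member. The one shared by Tnfrsf22 and Tnfrsf23, both TRAIL decoy receptors, had means of 9.64 in WT RAS and 9.77 in KO RAS, and the one shared by Csf2rb and Csf2rb2, chains of the receptors for GM-CSF and IL-3, had 5.71 and 5.65. Both had overlapping groups, as did the 2 that name Tnfsf12, with means of 4.62 and 4.38 and of 3.78 and 3.77.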
